A study of Mus musculus with 2 samples.

Results

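The X-linked microRNA (miRNA) genes Mir221 and Mir222 were followed in the forebrain of mouse embryos at embryonic day 14.5. They were chosen by name and genomic position, as the 2 clustered genes of this miRNA family, and make up 2 of the 1973 miRNA genes in the deposited count tables. The tables come from small RNA sequencing of total RNA with inserts in a size range given as under 30. The study has a single group of 2 libraries from B6NCrl forebrain, numbered biological replicates 1 and 2, with no treatment, mutant or second tissue, so no comparison between conditions can be made. Each library is described as 1 forebrain, collected on different days, yet the sex is given as pooled and the donor identifier is shared. The labels do not settle whether the libraries come from separate embryos, so differences between them may be technical, and the p-values given here rest on the error of counting alone.

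miRNAs are short RNAs that guide Argonaute proteins to messenger RNAs, mainly through their seed, bases 2 to 8 from the 5′ end, and thereby lower the output of the targeted transcripts. miR-221 and miR-222 are processed from a common primary transcript and share a seed. They are known for targeting the cyclin-dependent kinase inhibitor genes Cdkn1b and Cdkn1c, which hold cells out of the division cycle, and Kit, a receptor tyrosine kinase. Outside the brain they are best described in endothelial and vascular smooth muscle cells and in proliferating tumour cells.

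The mature sequences are shown because the shared seed, in capitals, is what defines the family, while the remaining bases allow a read to be assigned to its gene. They are taken from RefSeq on GRCm38.p6.
mmu-miR-221-3p: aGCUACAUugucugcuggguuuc
mmu-miR-222-3p: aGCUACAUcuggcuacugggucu
mmu-miR-1928: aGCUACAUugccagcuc
mmu-miR-221-5p: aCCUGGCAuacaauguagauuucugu
The 3p products of Mir221 and Mir222 were identical over their first 8 bases and first differed at base 9. Without gaps, 11 of their 23 positions matched, and after the seed the longest common run was CUGGGU, which starts at base 15 of miR-221-3p and base 16 of miR-222-3p. Among the 1679 mature miRNAs of the table, 3 carried this seed, the third being miR-1928. Mir1928 had 0 counts in both libraries, which holds its counted reads to at most 0.424 CPM (replicate 1) and 0.378 CPM (replicate 2), the worth of 3 counts. Its listed sequence is the shortest of these, and reads matching several places were not counted, so its true level may be higher. CPM stands for counts per 1000000 miRNA gene counts of a library. The seed of miR-221-5p, from the other arm of the Mir221 hairpin, was carried by 1 mature miRNA, miR-221-5p itself.

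On mm10 (GRCm38), Mir221 (ENSMUSG00000065422.1) lies at chrX:19146294-19146388 and Mir222 (ENSMUSG00000065471.1) at chrX:19146893-19146971, both on the minus strand. Mir222 therefore comes first in the direction of transcription, and 504 nt separate the hairpins. The hairpins, with the mature products listed by RefSeq in capitals, show how little else the genes have in common.
Mir221: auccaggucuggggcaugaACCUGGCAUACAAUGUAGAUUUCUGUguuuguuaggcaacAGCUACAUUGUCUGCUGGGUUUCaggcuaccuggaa
Mir222: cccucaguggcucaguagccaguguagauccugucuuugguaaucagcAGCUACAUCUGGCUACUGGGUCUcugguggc
The longest run shared by both hairpins was 9 nt, and neither hairpin shared 20 nt or more with any other annotated miRNA gene. Each of the 3 mature sequences occurred in 1 annotated miRNA hairpin only. GENCODE M21 annotates no gene over either hairpin other than the miRNA genes themselves. The closest annotated gene upstream on the same strand is the non-coding Gm14636, whose 3′ end lies 10009 nt from Mir222 and whose annotated start lies 20269 nt from it, and the closest gene on the other side is the pseudogene Gm5383, 203065 nt from Mir221.

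Mir221 had 2159 counts in replicate 1 and 1902 in replicate 2, and Mir222 had 804 and 714. The values are whole read counts on the strand of the gene. In CPM, Mir221 stood at 305 CPM in replicate 1 (exact 95% Clopper-Pearson interval 292 to 318) and 239 CPM in replicate 2 (229 to 250). Mir222 stood at 114 CPM in replicate 1 (106 to 122) and 89.8 CPM in replicate 2 (83.4 to 96.7). Mir221 was thus above Mir222 in both libraries with no overlap, and each gene was higher in replicate 1. The means were 272 ± 46.4 CPM for Mir221 and 102 ± 16.8 CPM for Mir222 (SD, n = 2). Together they held 0.0374% ± 0.00631 of the miRNA counts (SD, n = 2). These intervals describe the error of counting reads alone, because PCR copies could not be recognised without molecular identifiers. Neither gene had a count on the opposite strand.

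Depth was 7080317 miRNA gene counts in replicate 1 and 7946585 in replicate 2, so a single count was worth 0.141 and 0.126 CPM. Reads matching several places, 43.3% of all reads in replicate 1 and 42.2% in replicate 2, were in no gene count. The forebrain label was checked against 11 neural miRNA genes, of which 10 had 10 or more counts in both libraries. They were led by Mir137, an miRNA of neurons, at 7614 ± 481 CPM (SD, n = 2). This bar is low, since the liver gene Mir122 also passed it, with 73 counts in replicate 1 and 81 in replicate 2. Mir124a-1 (18 and 15), Mir124a-2 (10 and 17) and Mir9-2 (28 and 48) passed with fewer. Each of these, unlike Mir122, shares 20 nt or more with another locus. Their counts can therefore stand too low and do not rank miR-124 or miR-9 against miR-122. Passing the bar of 10 counts does not by itself set forebrain apart from other tissues. Mir124a-3 had 3 and 4 counts, and its reads that match the other miR-124 loci were not counted. Of 3 striated muscle genes, Mir206 had 136 counts in replicate 1 and 108 in replicate 2. Mir1a-1 and Mir133a-1 had 0 in both, which sets no limit on their levels, because each shares 20 nt or more with another locus and such reads can be left out of the gene counts.

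Both members belonged to the middle of the expressed miRNAs. Among the 399 genes detected, meaning at 10 or more counts in both libraries, Mir221 was 133rd by mean CPM and Mir222 was 191st. Mir221 exceeded 66.7% of the detected genes and stood 3.36-fold above the detected median of 81.0 CPM, and Mir222 exceeded 52.1% and stood 1.26-fold above it. Across the libraries the rank of Mir221 was 128 in replicate 1 and 137 in replicate 2, and that of Mir222 was 187 and 193.

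The order around each gene was not resolved by 2 libraries. For Mir221, 21 genes between ranks 123 and 149 had a range over the libraries that overlapped its own, and for Mir222 it was 18 genes between ranks 179 and 197. The gene just above Mir221 was Mir339 at 278 CPM (replicate 1) and 267 CPM (replicate 2), and the gene just below was Mir374b at 293 and 225 CPM. Mir222 lay between Mir224 at 122 and 83.2 CPM and Mir455 at 96.9 and 105 CPM. None of these neighbours differed from its member beyond the spread of the libraries.

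By Euclidean distance on the log2(CPM + 1) scale over the 2 libraries, the genes most like Mir221 were Mir374b (0.107), Mir421 (0.140) and Mir148b (0.142). Mir374b and Mir421 are also neighbours of each other on chromosome X. The genes most like Mir222 were Mir702 (0.087), Mir679 (0.117) and Mir345 (0.133). With 2 libraries, likeness says only that level and ratio between libraries were close.

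**Figure D1:**
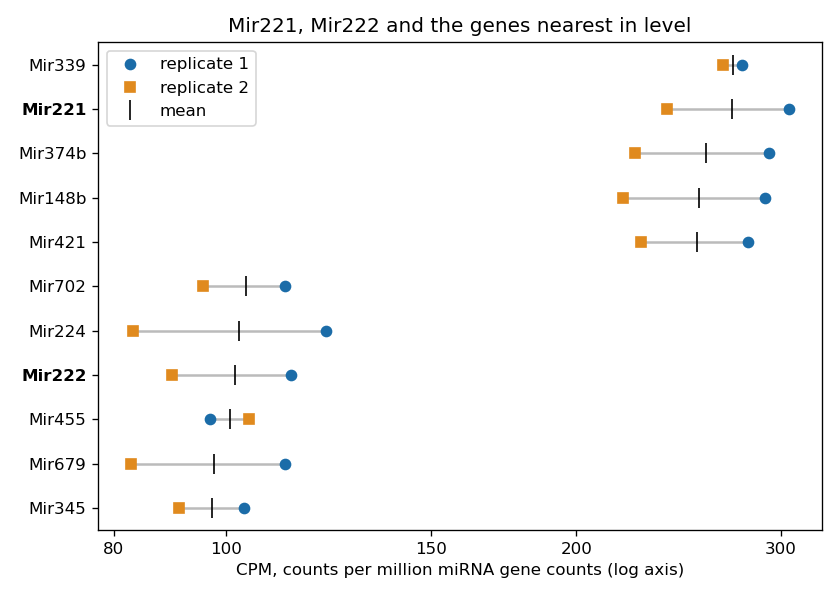
CPM (log axis) of Mir221, Mir222 and the genes nearest to them, with circles for replicate 1, squares for replicate 2, ticks for the mean and grey lines for the range. The ranges of Mir221, 239 to 305 CPM, and Mir222, 89.8 to 114 CPM, overlap those of their neighbours but not each other.

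Although described as products of the same primary transcript, the members did not give equal read counts. How evenly their different sequences are turned into reads was not measured. The ratio is therefore one of reads, and the amounts of the RNAs may differ by another factor. Mir221 gave 2.69 counts per Mir222 count in replicate 1 (exact 95% interval 2.48 to 2.92) and 2.66 in replicate 2 (2.44 to 2.91). The excess of Mir221 passed an exact two-sided binomial test of equal counts in each library (p = 1.08e-141 in replicate 1 and p = 1.57e-123 in replicate 2), which knows counting error only. The ratio was nearly the same in both libraries, with 72.9% of the pair's counts from Mir221 in replicate 1 and 72.7% in replicate 2. A difference in this share was not detectable (two-sided Fisher's exact test, p = 0.904, odds ratio 1.01 for replicate 1 over replicate 2, exact 95% interval 0.894 to 1.14). A read covers most of a mature miRNA, so counts were not divided by hairpin length. Per nucleotide of hairpin, 95 nt for Mir221 and 79 nt for Mir222, the ratio was 2.22. The counts do not separate the 5p and 3p arms, so the part of each product is not known.

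How this imbalance compares with other neighbouring genes was read from all places where exactly 2 detected miRNA genes lie on the same strand within 10 kb. There were 29 such pairs, Mir221 and Mir222 included. The higher gene exceeded the lower by a median of 14.1-fold, and by 1.02-fold for Mir421 and Mir374b at the even end and 886-fold for Mir99a and Mirlet7c-1 at the other. With 2.67-fold, Mir221 and Mir222 were ninth from the even end. Reads can be lost to the multi-mapping total where a hairpin has 20 nt or more in common with a different locus, which moves such ratios. Of the 14 pairs without such hairpins, 4 were more even than Mir221 and Mir222, and the median was 5.11-fold. Close to them stood Mir181d and Mir181c, with Mir181c 2.33-fold higher, and Mir224 and Mir452, also on chromosome X, with Mir224 2.02-fold higher.

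The ratio within Mir221 and Mir222 was also among the steadiest. Its log2 value was 1.43 in replicate 1 and 1.41 in replicate 2, while the pairs had a median difference of 0.22 log2 units between the libraries. Only Mir3078 and Mir124a-1 had a smaller difference, and Mir124a-1 had few counts, 18 and 15. The largest was that of the erythroid genes Mir451a and Mir144, with 6.75 in replicate 1 and 4.83 in replicate 2. These are descriptions, and the steadiness of the ratio was not tested against that of other pairs.

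**Figure D2:**
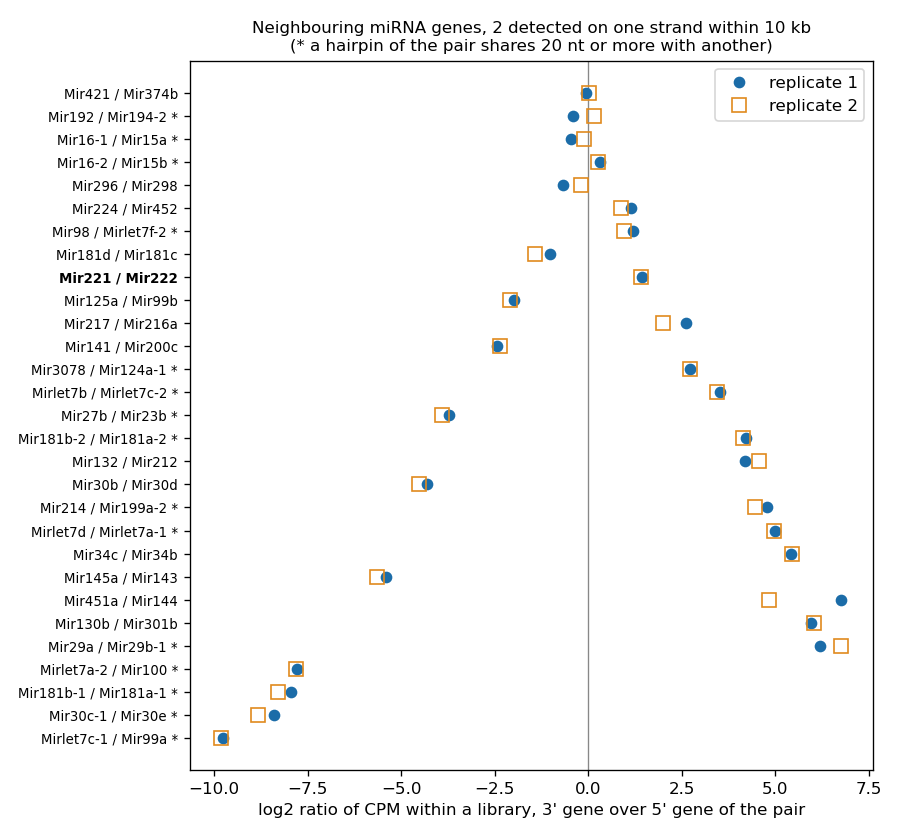
The log2 ratio of the 3′ gene over the 5′ gene, in the direction of transcription, for 29 pairs of neighbouring miRNA genes, ordered by how uneven they were, with filled circles for replicate 1 and open squares for replicate 2. Mir221 over Mir222, in bold, is ninth from the top with 1.43 and 1.41, and its symbols coincide.

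Vascular miRNAs were used to place the pair, since miR-221 and miR-222 are often described in vessel walls. Of 20 listed genes 18 were in the tables, and 16 of these were detected. Mir221 was exceeded by 9 of the 18 and Mir222 by 11. At least Mir23b, Mir27b and Mir199a-2 of the list share 20 nt or more with another locus. Reads of such genes can be left out of the gene counts, so these genes can stand too low. Mir221 stood at 0.0107 to 0.0138 of the level of Mir126a, the endothelial miRNA in the gene Egfl7, which had 22103 CPM in replicate 1 and 22365 CPM in replicate 2. Against Mir143 of mural cells, at 3400 and 3825 CPM, it stood at 0.0626 to 0.0897 of the level. Mir221 was 3.13-fold to 3.79-fold above Mir145a, the neighbour of Mir143, which had 80.4 and 76.5 CPM. In bulk tissue, fewer cells of a type and less RNA per cell cannot be told apart, and which cells carried Mir221 and Mir222 was not measured.

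Next to miRNAs linked to proliferation, the members were low. The list holds the 15 genes of the miR-17, miR-106b and miR-106a clusters, all detected. Mir221 lay below 10 of the 15, and Mir222 below the same number. Reads matching several places were in no gene count, so genes of this list that share sequence with another locus can stand too low. Mir17, the leading gene of the list, had 35272 CPM (replicate 1) and 28172 CPM (replicate 2), and Mir221 stood at 0.00850 to 0.00865 of its level. By mean CPM, Mir221 at 272 CPM was closest to Mir20b of chromosome X at 274 CPM, which had 336 CPM (replicate 1) and 212 CPM (replicate 2).

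**Figure D3:**
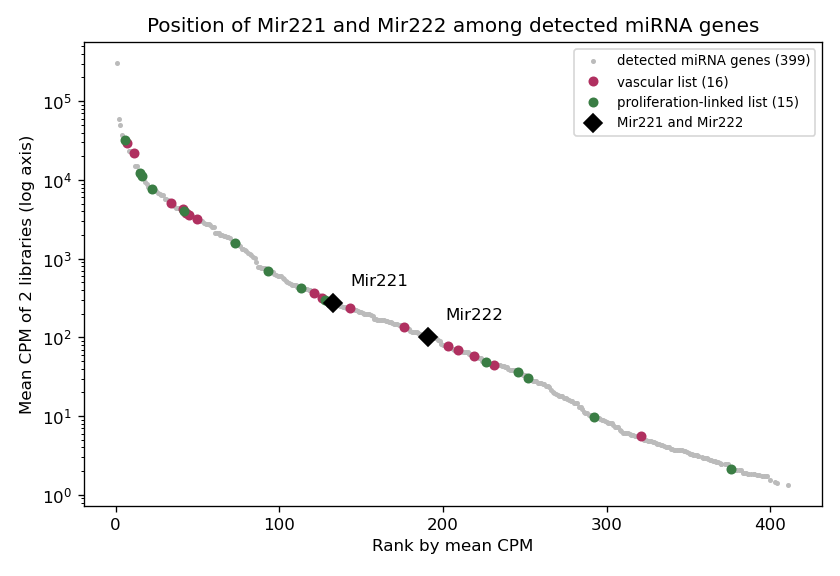
Mean CPM over the libraries (log axis) of the 399 detected miRNA genes against their rank, with the vascular and proliferation-linked lists in colour and Mir221 and Mir222 as black diamonds. Mir221 and Mir222 sit at 272 and 102 CPM, in the middle of the curve and inside the range of both lists.

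Among the 120 miRNA genes annotated on chromosome X, 42 were detected. Mir221 was 16th and Mir222 was 28th of these by mean CPM, and together they held 1.19% of the X-linked miRNA counts in replicate 1 and 0.960% in replicate 2. The nearest other miRNA gene of the tables on this chromosome, Gm24824, lies 1676765 nt away and had 0 counts, and its hairpin shares sequence with another. No other miRNA gene therefore lies close enough to be read as part of this cluster.

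Both members were higher in replicate 1, by nearly the same factor. Mir221 had a ratio of 1.27 (log2 0.35; Fisher's exact test against the remaining counts, Benjamini-Hochberg adjusted over all genes, p = 2.53e-13) and Mir222 a ratio of 1.26 (log2 0.34; same exact test, adjusted p = 7.29e-05). Such calls were common. Of all 1973 genes, 9.02% passed the test, and of the 399 detected genes, 43.9% passed. Calls toward replicate 1 made up 5.83% of all genes and 28.6% of the detected ones. At a minimum of 2-fold, 0.355% of all genes passed and neither member did. The test sees no error other than that of counting, compares libraries and not conditions, and calls small differences at this depth. Among the detected genes, 32.1% had a difference at least as large as that of Mir221 and 33.1% one at least as large as that of Mir222. The coefficient of variation was 17.0% for Mir221 and 16.5% for Mir222, and the common biological coefficient of variation that edgeR estimated over 445 genes was 15.1%. The member values use CPM and include counting error, while the edgeR value follows TMM scaling and leaves counting error out. They can be compared only roughly. By the share of detected genes with a difference at least as large, each member lay within the general spread between the libraries.

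The size of this shift depended on the scaling. With CPM, the detected genes had a median log2 ratio of 0.09, with 248 genes on the side of replicate 1 and 151 on that of replicate 2. With TMM the median was 0.01 and 203 of the 399 genes were higher in replicate 1, and with median-of-ratios factors it was -0.02 with 191 genes. The members then stood at 0.27 (Mir221) and 0.26 (Mir222) with TMM, and at 0.24 and 0.23 with median-of-ratios factors, all still past the adjusted threshold and toward replicate 1. The split of all calls was 115 toward replicate 1 and 63 toward replicate 2, against 88 and 79 with TMM and 80 and 90 with median-of-ratios factors.

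Other genes of the lists moved in both directions. Their ratios and calls are given with CPM, which leaned toward replicate 1 more than TMM or median-of-ratios factors did. Over all 399 detected genes, 28.6% passed toward replicate 1, 43.9% passed in either direction, and the median log2 ratio was 0.09. Apart from the members, 40 X-linked genes were detected, with a median log2 ratio of 0.13, and 15 of them passed toward replicate 1 and 4 toward replicate 2. A ratio at least as high as that of Mir222 was found in 12 of the 40, among them Mir374b at 0.38, Mir384 at 0.47 and Mir224 at 0.55. Without the 6 X-linked genes of the proliferation-linked list, the median over 34 genes was 0.04. In the proliferation-linked list the median was 0.40, and 11 of the 15 genes passed toward replicate 1, whereas Mir106b passed toward replicate 2 at -0.07. The vascular list had a median of 0.02 over 16 genes, with 3 that passed toward replicate 1 and 6 toward replicate 2. None of the vascular genes had a ratio as high as the members, the highest being Mir130a at 0.26 and the lowest Mir10a at -0.44. Other cell type markers also differed between the libraries. Of the 10 detected neuron and forebrain markers, 5 passed toward replicate 1, among them Mir92b at 0.29. Toward replicate 2 passed Mir128-1 at -0.68 and Mir128-2 at -0.51. Both share 20 nt or more with another locus, as does Mir9-3, which passed toward replicate 1 at 0.19. Reads matching several places were not counted, so the ratios of these genes may not follow the levels of their miRNAs. The mural marker Mir143 passed toward replicate 2 at -0.17, while Mir145a did not pass. No myeloid, liver or striated muscle marker passed. The epithelial markers Mir203, Mir429 and Mir200b had a sum of 1524 CPM (replicate 1) and 2003 CPM (replicate 2). All of them passed toward replicate 2, at log2 ratios of -0.17, -1.16 and -0.76. The erythroid markers Mir451a and Mir144 had a sum of 400 and 537 CPM, and both passed toward replicate 2, at -0.39 and -2.31. The endothelial marker Mir126a passed toward replicate 2 at -0.02. The choroid plexus and ciliated cell markers Mir449a and Mir204 had a sum of 6806 CPM (replicate 1) and 5602 CPM (replicate 2). Both passed toward replicate 1, Mir449a at a log2 ratio of 0.38, close to that of Mir221, and Mir204 at 0.07. The part of these markers in the ratios of Mir221 and Mir222 was not tested, and the day of collection, which differed too, cannot be told apart from them.

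**Figure D4:**
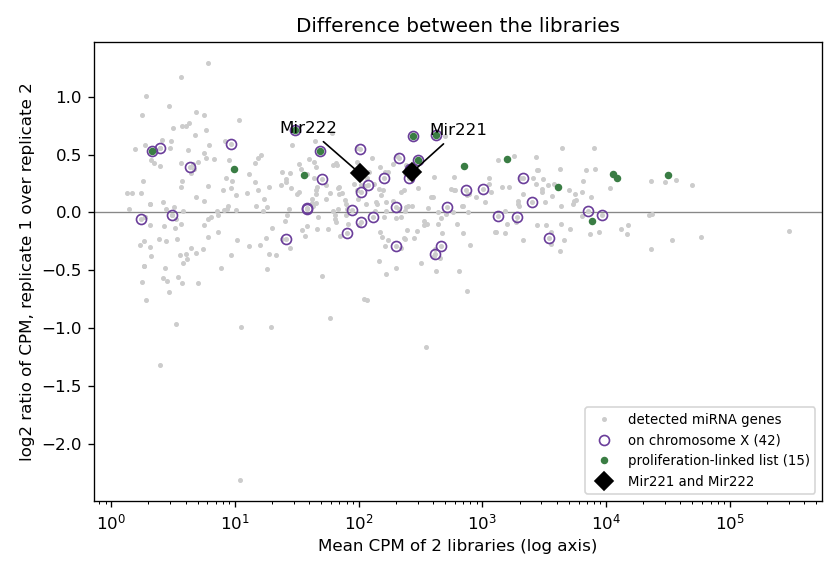
The log2 ratio of CPM, replicate 1 over replicate 2, against mean CPM (log axis) for detected miRNA genes, with X-linked genes as open circles, the proliferation-linked list in green and Mir221 and Mir222 as black diamonds. Mir221 at 0.35 and Mir222 at 0.34 lie above the median of 0.09 and inside the cloud of genes with similar levels.

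The seed of miR-221-3p and miR-222-3p pairs with the letters ATGTAGC in a messenger RNA. This match was searched on the sense strand in the longest annotated 3′ UTR of each protein-coding gene in GENCODE M21, and 1987 of 21020 genes, or 9.45%, held it. It was also looked up in Cdkn1b, Cdkn1c and Kit, which were picked as known targets. Each site is shown with its preceding bases and the match in capitals, to show what the shared seed of the members pairs with.
Cdkn1b: ctctaaaagcattggATGTAGCa
Cdkn1c: tgggacctttcgttcATGTAGCa
Kit, first site: aatgatgggagatatATGTAGCa
Kit, second site: tttgtaaatattgaaATGTAGCa
Counted from the base after the stop codon, the match starts at base 2357 of 3439 in Cdkn1b, base 95 of 688 in Cdkn1c and bases 447 and 1978 of 2177 in Kit. All 4 matches are followed by an A, a form held by 3.50% of the genes. A match is a description of the letters, and neither binding nor these messenger RNAs were measured in the libraries.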

How the data were processed

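The authors deposited whole-number read counts per miRNA gene, 1 table for each of the 2 libraries, on mm10 with GENCODE annotation M4, per the README files deposited with the samples. The sources used here do not name the aligner, the counter or their settings. Each table counts reads of either strand, of the gene strand alone and of the opposite strand alone, and the first is the sum of the others at every gene. The 4 totals of reads that name no gene were left out of library sizes.

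Counts on the gene's strand were scaled to CPM over all miRNA gene counts. Of 1973 gene IDs, 1894 were named from GENCODE M21, which uses the same assembly. For the libraries a Fisher's exact test (two-sided) was run per gene, adjusted by Benjamini-Hochberg over all genes (threshold 0.05). It was tried first on simulated counts that held counting error alone, which does not check it for a wider spread between libraries. Members were compared within a library by an exact binomial test. Alternatives with other scaling factors used an exact binomial test with scaled library totals. Named genes were the members, the 3 nearest genes and the next gene above and below each, and leading or extreme genes of the lists and of the neighbouring pairs. The members and lists were chosen with earlier results of these data known. Mir24-1 and Mir126b of the vascular list were not analysed here. Sequences are from RefSeq and GENCODE M21. SciPy 1.17.1 and edgeR 4.0.16 (TMM, dispersion) were used. No count model between groups was fitted, since the libraries form 1 group.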

Additional observations from a re-analysis of the deposited data

How the results depend on the processing

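The ratio of Mir221 to Mir222 kept its direction and stayed past the threshold with counts on either strand (2.67), per nucleotide of hairpin (2.22) and without either replicate (2.66 to 2.69). The differences of Mir221 and Mir222 between the libraries kept their direction and call under TMM, median-of-ratios factors, totals without the most abundant gene, counts on either strand and a filter on low counts, at log2 ratios of 0.24 to 0.35 and 0.23 to 0.34. The weakest call was that of Mir222 with median-of-ratios factors (exact binomial test, adjusted p = 0.0273). The number of genes that differed by 2-fold or more was 7, and 17 when genes below 10 counts in both libraries were left out of the adjustment, because fewer genes were tested. Without a minimum fold it was 178, and 167 to 213 under the alternatives. Mean levels rest on the total: 388 CPM for Mir221 and 145 CPM for Mir222 without the most abundant gene in the total, and 104 and 38.9 per 1000000 reads of the whole table. The nearest 3 genes of each member were the same with pseudocounts of 0.5 and 5. No paired analysis was possible because the libraries form 1 group. A pair of libraries gives a coarse SD, and depth does not limit the values of the members.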
